A study of Mus musculus with 6 samples.

Results

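The semaphorins, plexins, ephrins, Eph receptors and the other classical axon guidance ligands and receptors were followed in RNA-seq of cultured mouse cortical neurons depolarized with KCl. The genes were chosen by symbol alone: every protein-coding gene named as a semaphorin, plexin, ephrin A or B, or Eph receptor A or B, together with Nrp1, Nrp2, Slit1, Slit2, Slit3, Robo1, Robo2, Robo3, Dcc, Unc5a, Unc5b, Unc5c, Unc5d, Ntn1 and Ntn4. This gave 66 of the 43432 genes listed: 7 class 3 semaphorins, 13 membrane semaphorins, 9 plexins, 2 neuropilins, 8 ephrins, 14 Eph receptors, 3 Slits, 3 Robo receptors, 2 netrins and 5 netrin receptors. Neurons came from the cortex of wild-type C57BL/6 embryos at E16.5, with male and female embryos pooled, and were grown for 7 days. All groups were silenced overnight with 1 μM tetrodotoxin, which blocks voltage-gated sodium channels, and 100 μM DL-AP5, which blocks NMDA receptors. The groups then were harvested with no KCl (0 h) or after 2 h or 6 h in 55 mM KCl, 2 replicate cultures each, so the 0 h group is silenced and not depolarized. KCl depolarizes every cell of the dish, neuron or glia, directly and does not depend on synaptic input to do so.

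Guidance molecules act in ligand and receptor pairs on the growth cone, the motile tip of an axon. Class 3 semaphorins are secreted and bind neuropilins, which signal through plexins, while most membrane semaphorins bind plexins directly. Ephrins are tethered to the membrane and bind Eph receptor tyrosine kinases on neighbouring cells, with signals running both ways. Slits are secreted and repel axons through Robo receptors, and netrins attract through Dcc or repel through Unc5 receptors. After axons have found their targets many of these proteins act at synapses, on dendritic spines, axon branching and synapse number.

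Of the 66 genes, 16 passed both thresholds, given below, in at least 1 of the 3 comparisons, beside 28.5% of all genes tested in any of them. At 2 h Sema4b, Nrp1, Unc5b and Efna4 were lower than at 0 h and the low-abundance Epha2 was higher. At 6 h Slit2, Sema3e, Sema3a, Efna5, Epha3, Sema6a, Epha10 and Epha2 were higher than at 0 h, with Slit2 rising most among those with 50 or more normalized counts on average, at 3.72-fold. Sema4f, Plxnc1, Epha8 and Unc5b were lower than at 0 h. Compared with 2 h, the 6 h libraries had Sema3a, Sema3e, Sema4b, Nrp1, Efna5, Epha3 and Slit2 higher and Sema4f, Plxnc1, Epha8 and Ephb2 lower.

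The upstream sequences of 4 of these genes are shown because they lead the calls: Slit2 had the largest rise from 0 h to 6 h among well-counted genes, Sema3e the largest rise and Epha8 the deepest fall from 2 h to 6 h, and Epha2 was the only gene called higher at 2 h. Each is the 250 bases before the transcription start in RefSeq on GRCm38.p6, written 5′ to 3′ on the strand of the gene, with a match to a searched motif in capitals. The windows are chr5:47982905-47983154 on the plus strand for Slit2, chr5:14025026-14025275 on the plus strand for Sema3e, chr4:136956817-136957066 on the minus strand for Epha8, and chr4:141300971-141301220 on the plus strand for Epha2.
Slit2: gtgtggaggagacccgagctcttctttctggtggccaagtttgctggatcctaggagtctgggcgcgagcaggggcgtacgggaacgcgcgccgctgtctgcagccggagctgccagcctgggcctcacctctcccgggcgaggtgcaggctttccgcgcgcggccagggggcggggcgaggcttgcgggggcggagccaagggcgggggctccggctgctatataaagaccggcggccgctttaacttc
Sema3e: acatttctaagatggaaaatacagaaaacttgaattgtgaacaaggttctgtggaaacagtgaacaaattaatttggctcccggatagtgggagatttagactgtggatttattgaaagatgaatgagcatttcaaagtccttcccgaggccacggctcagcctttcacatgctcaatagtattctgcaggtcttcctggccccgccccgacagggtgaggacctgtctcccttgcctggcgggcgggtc
Epha8: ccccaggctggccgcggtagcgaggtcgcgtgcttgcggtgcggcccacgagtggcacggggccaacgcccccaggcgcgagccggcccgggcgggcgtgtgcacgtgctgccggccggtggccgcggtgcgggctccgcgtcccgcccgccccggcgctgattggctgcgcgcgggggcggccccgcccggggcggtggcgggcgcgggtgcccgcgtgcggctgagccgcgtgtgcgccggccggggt
Epha2: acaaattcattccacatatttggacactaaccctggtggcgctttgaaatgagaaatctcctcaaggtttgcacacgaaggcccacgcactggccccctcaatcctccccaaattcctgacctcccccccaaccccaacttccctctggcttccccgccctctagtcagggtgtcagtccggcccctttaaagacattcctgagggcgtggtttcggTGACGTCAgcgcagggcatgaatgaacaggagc

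Windows of this length were found for 56 of the 66 genes (72 windows), among them 15 of the 16 genes called in at least 1 comparison, and were searched on both strands for 3 motifs of activity-dependent transcription factors. The cAMP response element TGACGTCA, bound by CREB, was in 1 of the 72 windows, that of Epha2, where its first base lay 33 bases before the start, and in 1.55% of the 32851 windows of all genes. The AP-1 motif TGANTCA was in the windows of Sema4c, Sema4d and Sema6b and in 6.75% of all windows. The Egr motif GCGTGGGCG was in the windows of Efna3 and Plxna2 and in 0.536% of all windows. None of those last 5 genes was called in any comparison. The GC content of the printed windows ran from 48.0% in Sema3e and 55.6% in Epha2 to 69.6% in Slit2 and 84.0% in Epha8. These matches describe letters in the windows and no binding was measured.

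Library totals of expected counts ran from 25959298 to 28573067, of which the 66 genes took 0.46% to 0.518%. Known activity genes (Fos, Npas4, Arc and others) were called higher for 10 of 10 at 2 h and 8 of 10 at 6 h, relative to 0 h. The 2 libraries at 2 h differed more from each other than those of the other groups: for the 58 guidance genes averaging 50 or more normalized counts, the log2 ratio of the replicates had an SD of 0.332 there, beside 0.170 before KCl and 0.142 after 6 h. At 2 h this ratio followed the GC content of the genes, with a Spearman correlation of -0.866 across those genes, which share the same pair of libraries, and the correlation was -0.489 at 0 h and -0.438 at 6 h. Neuron markers summed to 4556 to 4731 TPM at 0 h, 4774 to 5216 at 2 h and 5336 to 5361 at 6 h, and astrocyte markers to 836 to 906, 787 to 822 and 604 to 632. Oligodendrocyte lineage markers summed to 129 to 152 TPM at 0 h, 98.9 to 116 at 2 h and 124 to 134 at 6 h, so that the 2 h libraries were lowest and apart. Among these markers Sox10 was called lower at 2 h against 0 h (-2.61, DESeq2 adjusted p = 4.87e-14) and higher at 6 h against 2 h (2.24, adjusted p = 1.40e-10), the same calls as Sema4b and Nrp1 below. Over the 6 libraries progenitor markers ran from 131 to 151 TPM, endothelial and mural markers from 12.7 to 19.6 and microglia markers from 2.84 to 7.06, and no marker was at 0 in all libraries. Among the 10 neuron markers DESeq2 called Gad1 (1.41) and Gad2 (1.36) higher at 6 h against 0 h, where Slc17a7 was at -0.44 (adjusted p = 0.00749), and among the 7 progenitor markers Nes higher (1.08) and Hes5 lower (-1.81). The part of these cell types in the results was not tested, and in whole cultures fewer cells of a type and less RNA per cell cannot be told apart. Nothing in the labels ties replicates to separate litters, so the p-values measure the spread between these cultures.

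In silenced neurons at 0 h, the mean levels reached 223 TPM (a level that allows for transcript length). Of the 66 genes, 41 had a mean of at least 10 TPM and 7 a mean under 1 TPM, namely Sema3b, Sema3g, Plxnb3, Efna1, Epha1, Epha2 and Robo3. Efnb3, an ephrin B that is a ligand for EphB and EphA4 receptors, was highest at 225 and 222 TPM. Next came Efnb2 at a mean of 96.5 TPM and Epha5 at 99.2 and 86.7 TPM, whose libraries lay on both sides of that value. Plxna2 (79.6 and 75.6 TPM) and Plxnc1 (79.1 and 74.7 TPM) also overlap each other, and Plxna1 lay just below both at 71.0 and 72.8 TPM. In 9 of the 10 role groups the lead gene had at least 14.6 TPM at 0 h, and the netrins were lowest, with Ntn1 at 7.73 and 6.94 TPM. By 6 h Epha5 had the highest level at 144 and 146 TPM, above Efnb3 at a mean of 125 TPM and Efnb2 at a mean of 118 TPM, whose libraries overlap each other. Slit2 moved from place 35 to place 9 among the 66 genes and Plxnc1 from place 5 to place 24.

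**Figure D1:**
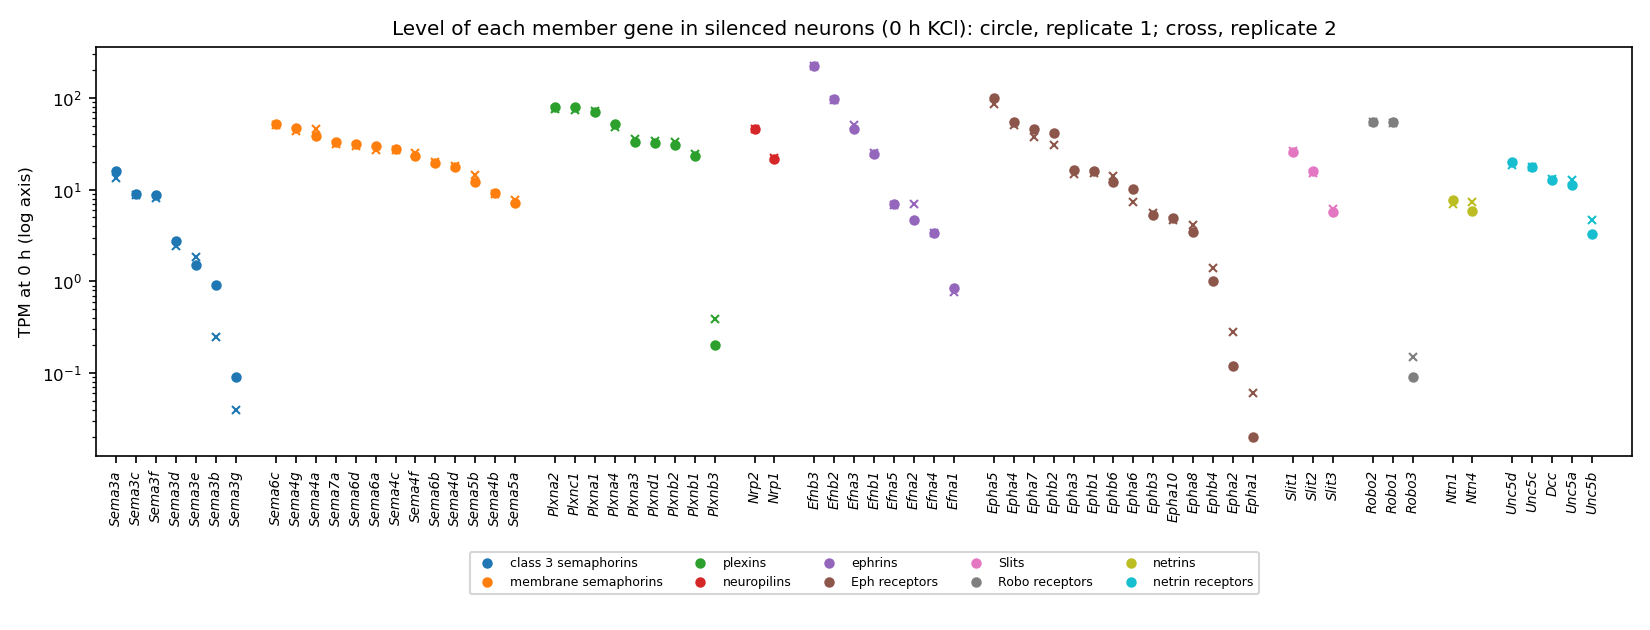
TPM of each guidance gene at 0 h on a log axis, grouped by role and ordered within each group, with a circle for replicate 1 and a cross for replicate 2. Efnb3 stands highest at 225 and 222 TPM, and 7 genes have a mean under 1 TPM.

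A gene was called when its DESeq2 adjusted p was at most 0.05 and its change exceeded 2-fold. At 2 h against 0 h, 64 of the 66 genes were tested, and 1 was called higher (1.56%) and 4 lower (6.25%), beside 3.62% of all tested genes called higher and 5.94% lower. At 6 h against 0 h, 65 were tested and 8 were called higher (12.3%) and 4 lower (6.15%), beside 9.10% and 10.2% of all tested genes. At 6 h against 2 h, 64 were tested and 7 were called higher (10.9%) and 4 lower (6.25%), beside 10.1% and 8.02%. On counts of 1 to 8 genes, no difference of these shares from the background is read. Without the fold threshold, 17 genes (26.6%) had an adjusted p of at most 0.05 at 2 h against 0 h, 34 (52.3%) at 6 h against 0 h and 34 (53.1%) at 6 h against 2 h, beside 26.5%, 45.3% and 45.3% of all tested genes. The median log2 fold change of the guidance genes was 0.01, -0.15 and -0.14 in the 3 comparisons, beside 0.02, 0.00 and -0.01 for all genes, and the median absolute value was 0.22, 0.42 and 0.48, beside 0.34, 0.59 and 0.55. In all, 16 genes were called in at least 1 comparison, 44 had an adjusted p of at most 0.05 in at least 1, and 22 in none. Scaling by library totals instead of median-of-ratios factors put the median log2 fold change of all genes at -0.156, -0.251 and -0.075, so changes of that size depend on the scaling. The comparisons at 2 h and at 6 h share the 0 h libraries.

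**Figure D2:**
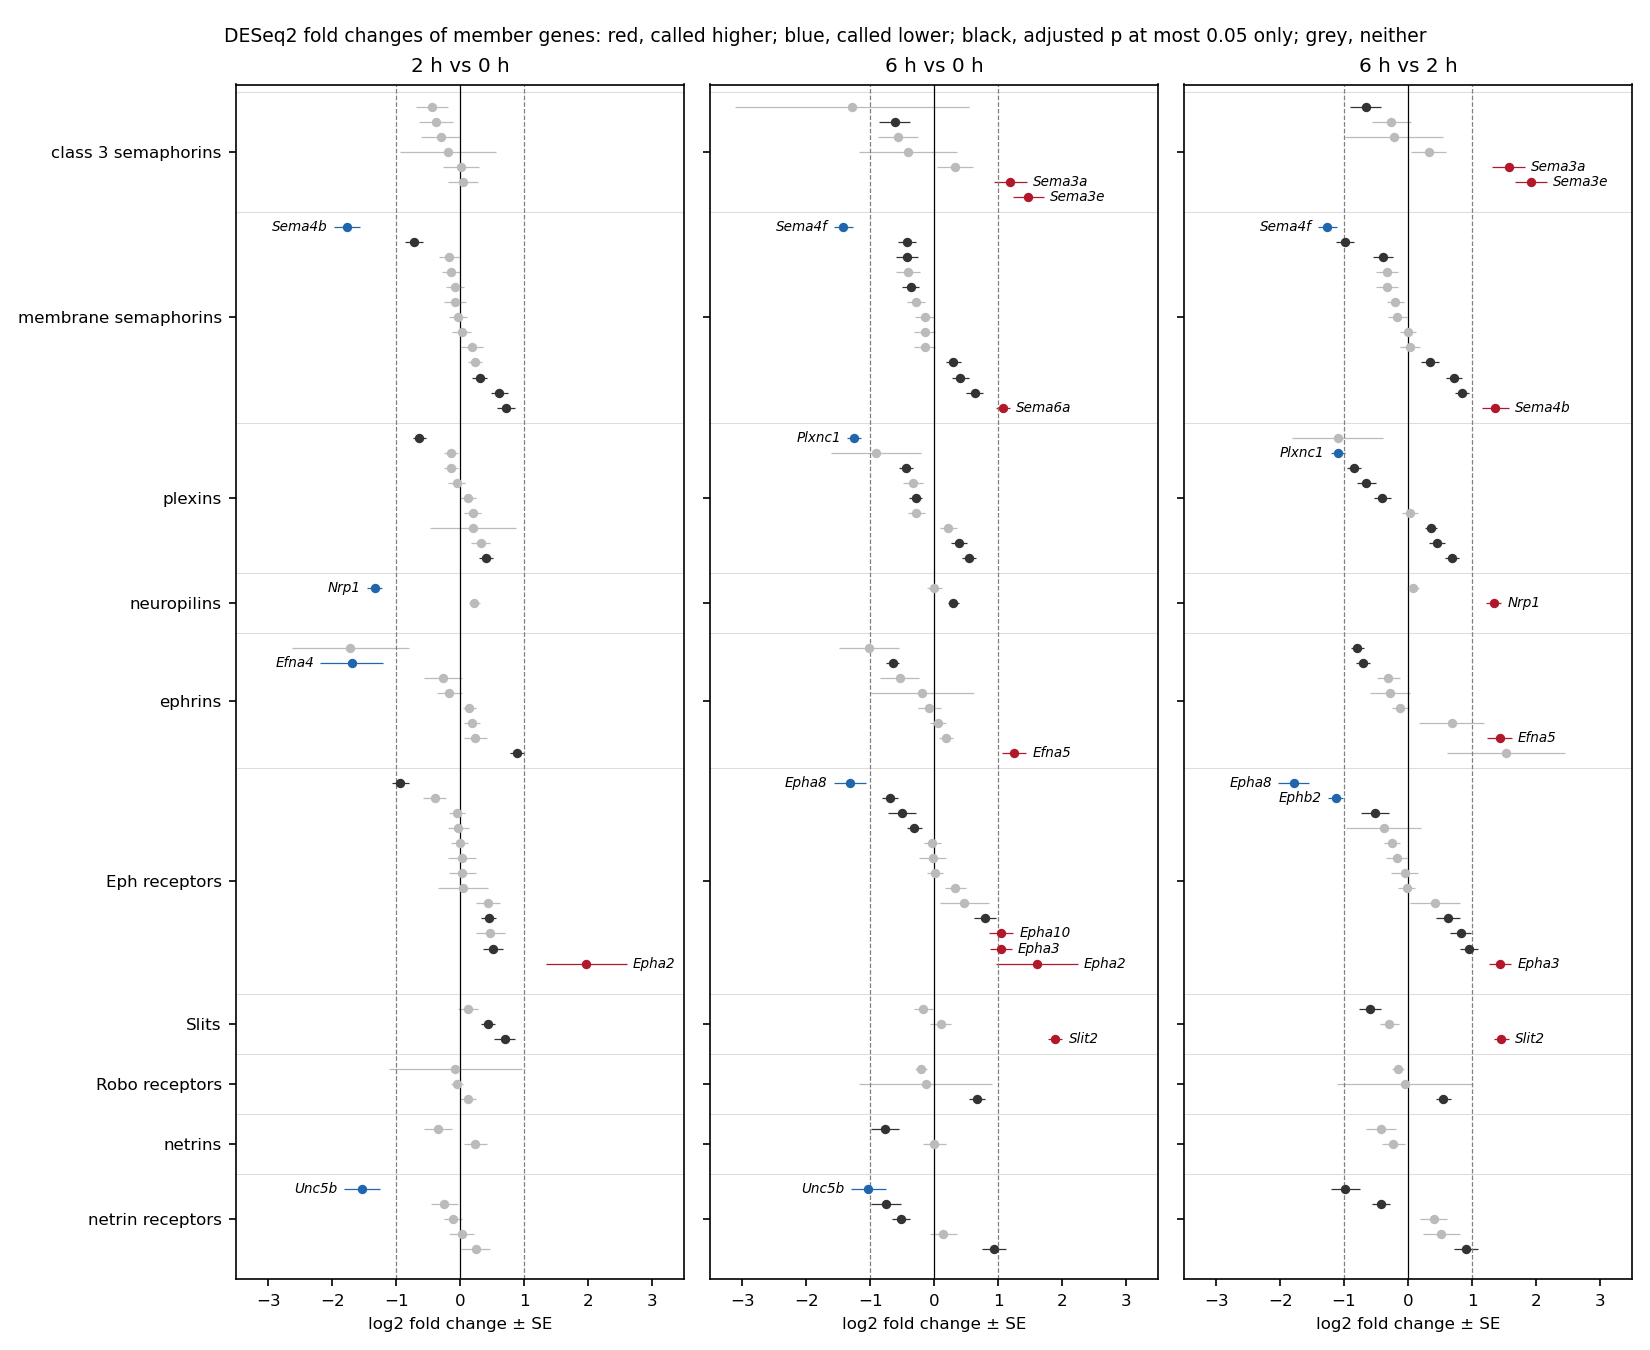
DESeq2 log2 fold change of each tested guidance gene with its SE, in 3 panels for 2 h against 0 h, 6 h against 0 h and 6 h against 2 h, grouped by role and sorted within each group and panel. Red points were called higher (1, 8 and 7 genes), blue points lower (4, 4 and 4), black points had an adjusted p of at most 0.05 only, and dashed lines mark a 2-fold change.

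Among the 7 secreted class 3 semaphorins, Sema3a and Sema3e rose at 6 h. Sema3a, the repellent for cortical axons that also orients dendrites (chr5:13125414-13602565), had normalized counts of 843.3 and 722.2 at 0 h, 773.9 and 431.1 after 2 h and 1730.3 and 1839.2 after 6 h. Both 6 h libraries stood above all 4 others, while the 2 h libraries spread widely and overlapped those at 0 h. Its log2 fold change was 1.19 ± 0.26 (SE) at 6 h against 0 h (2.28-fold, adjusted p = 2.38e-05) and 1.57 ± 0.26 at 6 h against 2 h (2.96-fold, adjusted p = 1.89e-08). Sema3e, which binds PlexinD1 without a neuropilin (chr5:14025276-14256689), had 139.4 and 170.2 normalized counts at 0 h, 129.8 and 97.2 after 2 h and 397.0 and 462.5 after 6 h. Again both 6 h libraries were apart from the rest, with the lowest counts at 2 h. The log2 fold change of Sema3e was 1.47 ± 0.24 at 6 h against 0 h (2.77-fold, adjusted p = 7.02e-09) and 1.92 ± 0.25 at 6 h against 2 h (3.78-fold, adjusted p = 1.44e-13). Sema3f, a ligand of Nrp2, moved the other way, with a log2 fold change of -0.62 ± 0.24 at 6 h against 0 h (adjusted p = 0.0243), within 2-fold. Sema3c and Sema3d did not pass the test in any comparison, and their 2 h libraries differed widely, with 846.8 and 451.8 normalized counts for Sema3c. Sema3b had between 8.60 and 20.4 normalized counts and Sema3g at most 6 reads in a library, too few for a fold change to be read.

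Of the 13 membrane semaphorins, 3 were called in at least 1 comparison, beside 28.5% of all genes tested. Sema4b (chr7:80186841-80226527) is a transmembrane class 4 semaphorin with roles at excitatory and inhibitory synapses, and its normalized counts were 456.3 and 447.5 at 0 h, 113.8 and 150.9 after 2 h and 339.2 and 341.0 after 6 h. All libraries of the 3 time points were apart, lowest at 2 h. It was called lower at 2 h (log2 fold change -1.77 ± 0.20, 3.42-fold lower, adjusted p = 2.90e-16) and higher at 6 h than at 2 h (1.36 ± 0.21, 2.57-fold, adjusted p = 6.46e-10), and its value at 6 h against 0 h was -0.41 ± 0.19 (adjusted p = 0.0704). Sema4f (chr6:82911885-82939769), a synaptic class 4 semaphorin that binds PSD-95, had 1242.8 and 1319.7 normalized counts at 0 h, 1066.5 and 1237.5 after 2 h and 461.2 and 498.0 after 6 h. Its fall came after 2 h, with a log2 fold change of -1.42 ± 0.15 at 6 h against 0 h (2.67-fold lower, adjusted p = 1.75e-20) and -1.26 ± 0.15 against 2 h (2.40-fold lower, adjusted p = 3.24e-16). Sema6a, a class 6 semaphorin and ligand of PlexinA2 and PlexinA4, rose 2.10-fold at 6 h against 0 h (log2 fold change 1.07 ± 0.11, adjusted p = 2.64e-21), with 1748.8 and 1643.3 normalized counts at 0 h, 2039.2 and 1927.0 after 2 h and 3646.7 and 3487.0 after 6 h.

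Sema4g rose within 2-fold at 2 h and fell by 6 h to just short of the threshold. Its normalized counts were 2806.9 and 2581.3 at 0 h, 3967.5 and 4822.8 after 2 h and 2139.0 and 2280.2 after 6 h, so that the 2 h libraries were highest and apart from the others. The log2 fold change was 0.71 ± 0.14 at 2 h against 0 h (adjusted p = 7.58e-06) and -0.99 ± 0.14 at 6 h against 2 h (adjusted p = 3.85e-11). Sema6d rose as well at 2 h (0.61 ± 0.13, adjusted p = 1.31e-05) and Sema4d, a ligand of PlexinB1, fell (-0.72 ± 0.14, adjusted p = 4.08e-06). Sema7a, the only semaphorin anchored by glycosylphosphatidylinositol and a ligand of PlexinC1 and integrins, rose at 6 h against 0 h with a log2 fold change of 0.63 ± 0.13 (adjusted p = 1.39e-05). Sema5a (-0.43 ± 0.14) and Sema6c (-0.42 ± 0.17) fell within 2-fold at 6 h against 0 h, and Sema4c was higher in both comparisons with 0 h at 0.30 ± 0.12, but it overlaps another gene on the opposite strand, so its counts are uncertain. Sema4a, Sema5b and Sema6b did not pass the test in any comparison.

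Of the 9 plexins, Plxnc1 alone was called in any comparison, beside 28.5% of all genes tested. Plxnc1, the receptor of Sema7a (chr10:94790866-94944835), had normalized counts of 7502.9 and 7062.9 at 0 h, 6747.6 and 6385.9 after 2 h and 3182.3 and 2941.7 after 6 h. The 6 h libraries held under 50% of the count of any library at 0 h. Its log2 fold change was -1.25 ± 0.11 at 6 h against 0 h (2.38-fold lower, adjusted p = 1.56e-29) and -1.10 ± 0.11 at 6 h against 2 h (2.14-fold lower, adjusted p = 7.84e-23). Its ligand gene Sema7a thus rose within 2-fold while Plxnc1 fell in the same libraries. Plxna1 had the highest mean TPM of the plexins over the 6 libraries, with 8793.6 and 8933.7 normalized counts at 0 h, 9186.2 and 11036.1 after 2 h and 9808.0 and 10793.3 after 6 h. No comparison of Plxna1 passed the test, with a log2 fold change of 0.22 at 6 h against 0 h and a 95% interval from -0.04 to 0.48. Plxna1 overlaps another expressed gene on the opposite strand and had non-whole counts in 5 libraries, so its counts are uncertain.

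The other A plexins, which pair with neuropilins or bind class 6 semaphorins, went in different directions within 2-fold. Plxna2 fell at 2 h (-0.64 ± 0.10, adjusted p = 7.20e-09) and was closer to its 0 h level at 6 h (-0.29 ± 0.10, adjusted p = 0.0140). Plxna3 rose at 2 h (0.40 ± 0.11, adjusted p = 0.00147) and was lower at 6 h than at 0 h (-0.44 ± 0.11, adjusted p = 2.78e-04). Plxna4, a signalling partner for Sema3a, rose at 6 h (0.54 ± 0.11, adjusted p = 4.82e-06) and so did Plxnb2 (0.39 ± 0.13, adjusted p = 0.00622). Plxnb1 and Plxnd1 were lower at 6 h than at 2 h (-0.40 ± 0.13 and -0.65 ± 0.15), and Plxnb3 had at most 33.1 normalized counts and passed no test.

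The neuropilins diverged. Nrp1, the binding subunit for Sema3a and a co-receptor for VEGF (chr8:128358604-128503363), had normalized counts of 1706.2 and 1756.2 at 0 h, 713.0 and 654.4 after 2 h and 1708.9 and 1753.2 after 6 h. The 2 h libraries were far below the other 4, which overlapped. Its log2 fold change was -1.34 ± 0.12 at 2 h against 0 h (2.53-fold lower, adjusted p = 3.31e-27) and 1.34 ± 0.12 at 6 h against 2 h (2.53-fold higher, adjusted p = 4.09e-27), and at 6 h against 0 h its 95% interval ran from -0.23 to 0.23. Nrp2, the subunit for Sema3f, had 3927.2 and 3927.1 normalized counts at 0 h, 4537.7 and 4604.7 after 2 h and 4908.3 and 4749.7 after 6 h. Its libraries rose in small steps that passed the test at 6 h against 0 h only (0.30 ± 0.09, adjusted p = 0.00384). Nrp2 had non-whole counts in 3 libraries.

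**Figure D3:**
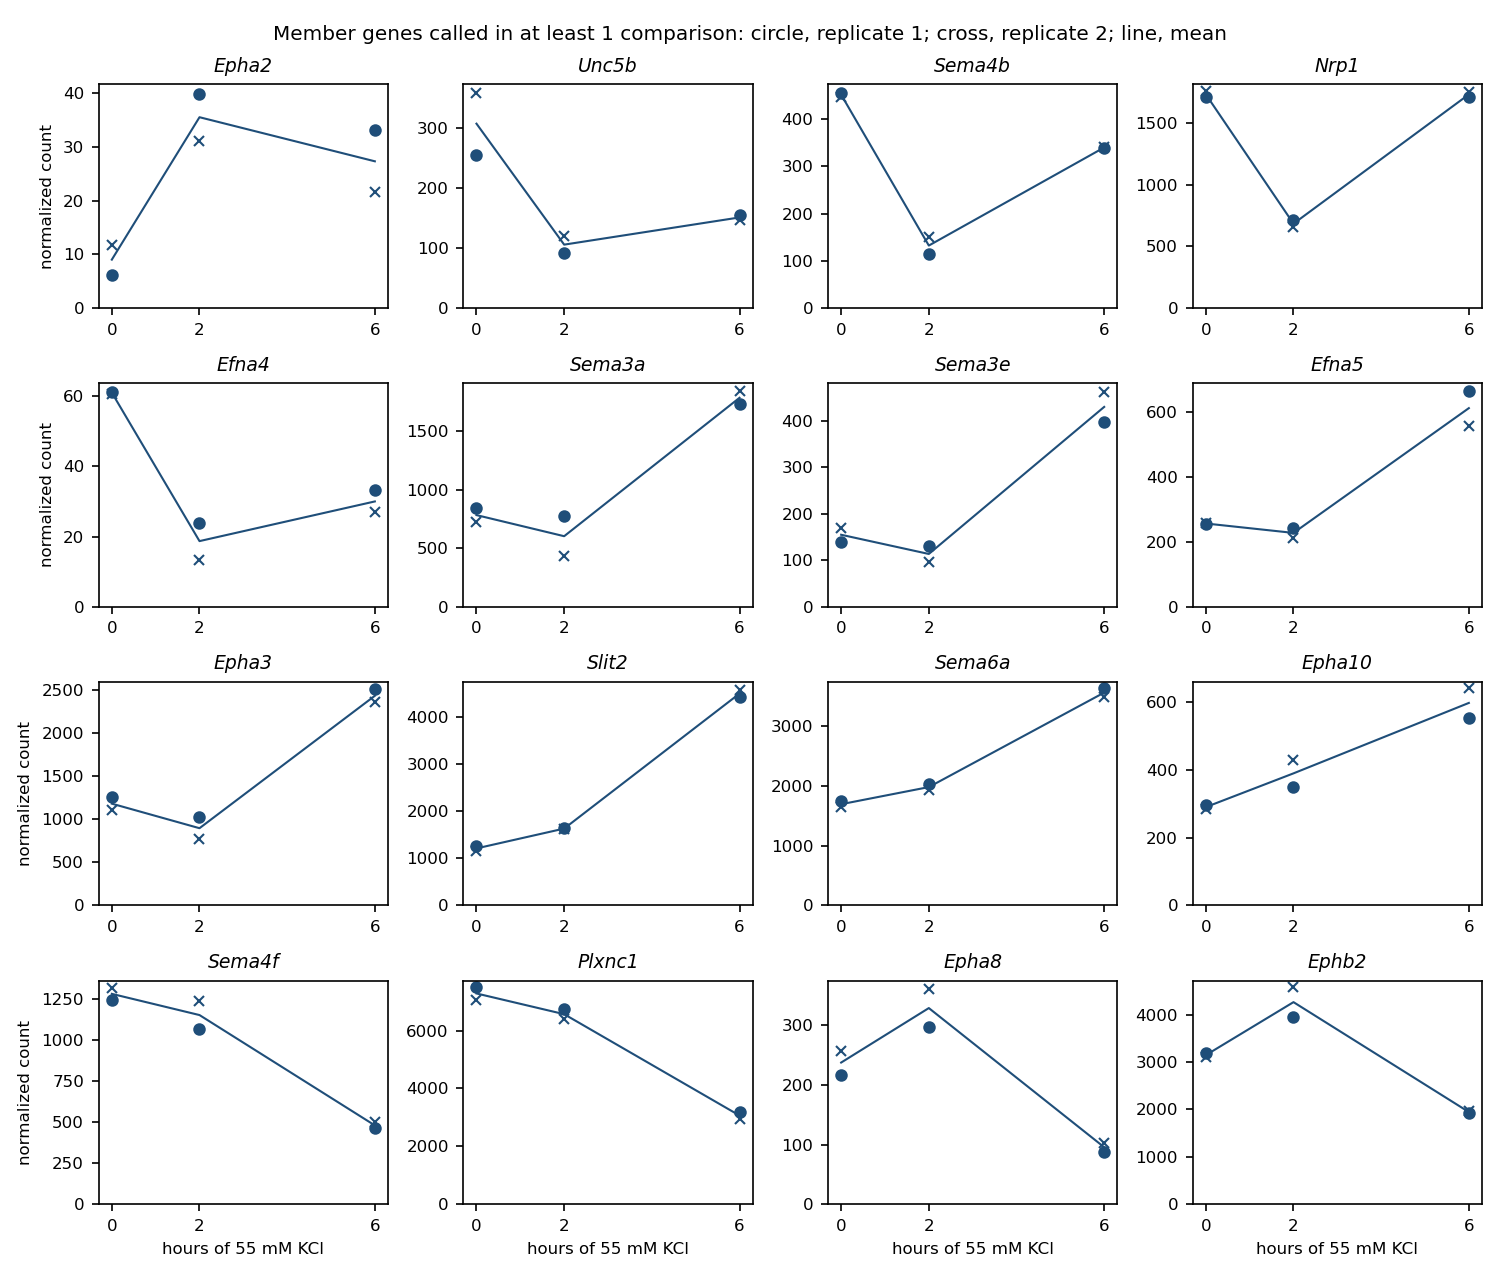
Normalized counts of the 16 guidance genes called in at least 1 comparison against hours of 55 mM KCl, on axes that start at 0, with a circle for replicate 1, a cross for replicate 2 and a line through the means. Sema4b and Nrp1 dip at 2 h and climb back by 6 h, and Sema3a, Sema3e, Efna5, Epha3 and Slit2 stand highest at 6 h.

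Among the 8 ephrins the most abundant gene fell while a scarcer one rose. Efnb3 had 9177.1 and 8958.2 normalized counts at 0 h, 9487.8 and 10445.8 after 2 h and 5731.1 and 5791.9 after 6 h. Both 6 h libraries were below all others, with a log2 fold change of -0.65 ± 0.10 against 0 h (1.57-fold lower, adjusted p = 1.34e-09) that did not reach 2-fold. Efna5, the ephrin A that patterns topographic maps as a ligand of several EphA receptors (chr17:62604184-62881317), had 254.8 and 257.9 normalized counts at 0 h, 242.7 and 211.9 after 2 h and 665.6 and 557.1 after 6 h. Its 6 h libraries were apart from the other 4, and the log2 fold change was 1.25 ± 0.19 against 0 h (2.39-fold, adjusted p = 1.73e-10) and 1.43 ± 0.19 against 2 h (2.69-fold, adjusted p = 7.88e-13). Efna4 (chr3:89333390-89338028) was called lower at 2 h, at 24.0 and 13.4 normalized counts against 61.3 and 60.7 at 0 h (-1.70 ± 0.49, 3.25-fold lower, adjusted p = 0.00327), and had 33.2 and 26.9 at 6 h. The counts of Efna4 are low, it overlaps an expressed gene on the opposite strand, and leaving out either 0 h library or replicate 2 at 2 h took its adjusted p to between 0.113 and 0.156. At 6 h against 0 h Efna4 was not called by DESeq2, at -1.02 ± 0.47 (2.03-fold lower, adjusted p = 0.0641), while edgeR called it lower (-1.05, adjusted p = 0.0242). Efnb2, which signals in reverse at synapses and in vessels, rose within 2-fold at 2 h (0.88 ± 0.11, adjusted p = 4.01e-14) and was back near its 0 h level at 6 h (0.18 ± 0.11, adjusted p = 0.191). Efna1, Efna2, Efna3 and Efnb1 did not pass the test in any comparison with DESeq2. Efna1 had at most 14.2 normalized counts, and edgeR called it lower at 2 h against 0 h (-1.70, adjusted p = 0.0394) and higher at 6 h against 2 h (1.48, adjusted p = 0.0471).

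Of the 14 Eph receptors, 5 were called in at least 1 comparison, beside 28.5% of all genes tested, and they went both ways. On so few genes no difference from that share is read. Epha3, an EphA receptor for ephrin A5 (chr16:63543534-63864175), had 1250.8 and 1106.5 normalized counts at 0 h, 1021.6 and 767.1 after 2 h and 2502.8 and 2353.3 after 6 h. It was called higher at 6 h against 0 h (1.04 ± 0.17, 2.06-fold, adjusted p = 1.41e-08) and against 2 h (1.44 ± 0.17, 2.71-fold, adjusted p = 3.33e-15). A correction for GC content brought the change of Epha3 against 0 h to 0.85, under the 2-fold threshold, as did leaving out replicate 2 at 0 h (0.96) or replicate 1 at 6 h (just short, at 1.00). Epha10 (chr4:124880899-124917800), a receptor with a kinase domain thought to be inactive, had 295.6 and 284.8 normalized counts at 0 h, 350.5 and 429.0 after 2 h and 553.2 and 642.1 after 6 h (1.04 ± 0.19, 2.06-fold, adjusted p = 1.67e-07). Without replicate 2 at 6 h the change of Epha10 was 0.93. Epha8 (chr4:136929419-136956816), known from the midbrain, had 217.5 and 257.9 normalized counts at 0 h, 296.6 and 361.8 after 2 h and 87.7 and 103.3 after 6 h. The groups did not overlap, with the highest values at 2 h and the lowest at 6 h, and Epha8 was called lower at 6 h against 0 h (-1.32 ± 0.25, 2.49-fold lower, adjusted p = 4.97e-07) and against 2 h (-1.79 ± 0.24, 3.45-fold lower, adjusted p = 3.64e-12).

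Ephb2 (chr4:136647539-136835988), an EphB receptor that binds NMDA receptors at excitatory synapses, had 3183.3 and 3108.0 normalized counts at 0 h, 3941.5 and 4588.1 after 2 h and 1915.4 and 1972.6 after 6 h. It rose within 2-fold at 2 h (0.44 ± 0.12, adjusted p = 0.00217), and at 6 h it was lower than at 2 h (-1.13 ± 0.12, 2.19-fold lower, adjusted p = 1.65e-18) and, within 2-fold, than at 0 h (-0.69 ± 0.12, adjusted p = 1.40e-07). Epha2 (chr4:141301240-141329384), better known from epithelia, was near the limit of detection, with 6.21 and 11.8 normalized counts at 0 h, 39.9 and 31.0 after 2 h and 33.2 and 21.5 after 6 h. The 0 h libraries were below the other 4, and Epha2 was called higher at 2 h (1.97 ± 0.63, 3.93-fold, adjusted p = 0.00957) and at 6 h (1.60 ± 0.64, 3.03-fold, adjusted p = 0.0308). Its adjusted p exceeded 0.05 in 5 of the 6 fits that left out 1 library at 2 h against 0 h, where it ran up to 0.254 without replicate 1 at 0 h, and in all 6 at 6 h against 0 h, where it ran up to 0.331 without replicate 1 at 6 h.

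Epha5, the most abundant Eph receptor, had 6334.7 and 5471.8 normalized counts at 0 h, 6607.8 and 4981.0 after 2 h and 10223.2 and 10259.8 after 6 h. Its 6 h libraries were above the other 4, at 0.79 ± 0.17 against 0 h (1.73-fold, adjusted p = 9.59e-06). All 6 libraries had non-whole counts for Epha5, so it shares reads with another gene. Epha7 dipped like Nrp1 but within 2-fold, at -0.94 ± 0.13 at 2 h against 0 h (1.92-fold lower, adjusted p = 7.72e-11) and 0.95 ± 0.14 at 6 h against 2 h (adjusted p = 2.24e-11). Epha4, a receptor for both ephrin classes, fell at 6 h against 0 h (-0.31 ± 0.12), as did Ephb6 (-0.50 ± 0.22, adjusted p = 0.0492), and Ephb3 rose at 2 h (0.51 ± 0.16). Ephb1, Epha6 and Ephb4 did not pass the test in any comparison, with a 95% interval for Ephb1 at 6 h against 0 h from -0.29 to 0.22. Epha1 had at most 3 reads in a library, had no adjusted p in any comparison and is at the floor of 3 counts in every library.

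Slit2 had the lowest adjusted p of the guidance genes. Slit2, a secreted repellent that also drives axon branching (chr5:47983138-48307733), had 1260.5 and 1154.5 normalized counts at 0 h, 1639.7 and 1615.9 after 2 h and 4409.6 and 4565.8 after 6 h. The libraries of the 3 time points did not overlap. It rose within 2-fold at 2 h (0.43 ± 0.11, adjusted p = 8.21e-04) and was called higher at 6 h against 0 h (1.89 ± 0.11, 3.72-fold, adjusted p = 3.63e-64) and against 2 h (1.46 ± 0.11, 2.76-fold, adjusted p = 1.87e-38). Slit3 rose at 2 h against 0 h, by 0.69 ± 0.17 (adjusted p = 2.68e-04), and was lower again at 6 h than at 2 h (-0.59 ± 0.17, adjusted p = 0.00136). Slit1 did not pass the test in any comparison, with a value at 6 h against 0 h of -0.17 and a 95% interval from -0.47 to 0.12.

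Of the Robo receptors, Robo2 rose within 2-fold. Its normalized counts were 4013.3 and 4016.4 at 0 h, 4740.4 and 4009.2 after 2 h and 6480.2 and 6326.5 after 6 h. The 6 h libraries stood above the others, at 0.67 ± 0.12 against 0 h (1.59-fold, adjusted p = 2.91e-07). Robo1 had between 4713.5 and 5620.1 normalized counts in the 6 libraries and passed no test, with a value at 6 h against 0 h of -0.21 ± 0.09 (adjusted p = 0.0562). Robo3, which guides commissural axons across the midline, had at most 8.43 normalized counts.

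Of the netrins, Ntn4 fell within 2-fold at 6 h and Ntn1 passed the test in no comparison, while their receptors moved in different directions. Ntn1 had 596.5 and 530.1 normalized counts at 0 h, 583.2 and 734.0 after 2 h and 563.9 and 560.4 after 6 h. Both later groups overlapped that at 0 h, and the 2 h libraries lay above those at 6 h, with a 95% interval from -0.35 to 0.34 at 6 h against 0 h and from -0.58 to 0.12 at 6 h against 2 h. Ntn4 fell within 2-fold at 6 h against 0 h (-0.77 ± 0.22, adjusted p = 0.00182). Unc5b, a repulsive netrin receptor that can also trigger cell death without its ligand (chr10:60762593-60831581), had 255.7 and 359.8 normalized counts at 0 h, 91.9 and 119.9 after 2 h and 155.2 and 147.4 after 6 h. The groups did not overlap, with the lowest values at 2 h. It was called lower at 2 h against 0 h (-1.54 ± 0.28, 2.91-fold lower, adjusted p = 4.68e-07) and at 6 h against 0 h (-1.03 ± 0.27, 2.04-fold lower, adjusted p = 6.42e-04). The call at 6 h was close to the fold threshold: the change was -0.89 with a correction for GC content, -0.76 without replicate 2 at 0 h (adjusted p = 0.121) and -0.99 without replicate 2 at 6 h.

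Unc5c, the netrin receptor gene with the highest mean TPM over the 6 libraries, had 2094.1 and 1987.1 normalized counts at 0 h, 2462.6 and 1684.1 after 2 h and 3903.5 and 3867.7 after 6 h. Its 6 h libraries were above all others, at 0.93 ± 0.19 against 0 h (1.90-fold, adjusted p = 5.19e-06). Unc5a and Dcc, the receptor for attraction, fell within 2-fold, at -0.75 ± 0.23 (adjusted p = 0.00400) and -0.52 ± 0.14 (adjusted p = 5.18e-04) against 0 h. Unc5d did not pass the test in any comparison.

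By time course, the 16 called genes fell into 8 patterns. Sema3a, Sema3e, Efna5, Epha3 and Slit2 were called higher at 6 h against both earlier times and not at 2 h, and the GC content of all 5 lies under 50%, as for 20 of the 66 genes. With a correction for GC content, 4 of these 5 rises stayed called at 6 h against 0 h, all but Epha3, and all 5 at 6 h against 2 h. Sema4f, Plxnc1 and Epha8 were called lower at 6 h against both earlier times. Sema4b and Nrp1 were called lower at 2 h and then higher at 6 h than at 2 h. Sema6a and Epha10 were called higher at 6 h against 0 h only, and Epha2 was called higher and Unc5b lower at both times against 0 h. Efna4 was called lower at 2 h against 0 h only, and Ephb2 was called lower at 6 h against 2 h only. These patterns are of calls: at 6 h against 0 h Efna4 was at -1.02 (DESeq2 adjusted p = 0.0641) and Ephb2 at -0.69 (adjusted p = 1.40e-07).

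Because levels within a group changed unequally, the makeup of some groups shifted. Slit2 made up 33.9% and 31.7% of the summed TPM of the Slits at 0 h, 38.5% and 34.1% after 2 h and 67.6% and 66.5% after 6 h, while Slit1 went from 54.3% and 55.5% at 0 h to 25.4% and 27.1% at 6 h. The sum itself was 47.6 and 47.7 TPM at 0 h and 73.5 and 79.4 TPM at 6 h. Sema3a held 40.6% and 38.4% of class 3 semaphorin TPM at 0 h and 57.9% and 58.2% at 6 h. Among ephrins, the share of Efnb3 was 54.9% and 54.1% at 0 h, 45.4% and 46.3% after 2 h and 37.1% and 39.2% after 6 h. The TPM of Efnb3 itself was 204 and 229 after 2 h, overlapping that at 0 h, while the share of Efnb2 went from 24.0% and 23.2% at 0 h to 38.0% and 35.6% after 2 h and 37.4% and 34.5% after 6 h. The ephrins summed to 409 and 410 TPM at 0 h, 450 and 495 after 2 h and 332 and 323 after 6 h. The share of Efna5 was 1.68% and 1.64% at 0 h and 4.83% and 5.11% at 6 h. Unc5c went from 27.1% and 26.4% of netrin receptor TPM at 0 h to 47.0% and 44.5% at 6 h. Nrp1 dropped from 32.1% and 32.7% of neuropilin TPM to 14.6% and 13.4% at 2 h and held 27.5% and 28.7% at 6 h. In each of these shares the libraries at 6 h lay apart from those at 0 h, while those of Efnb2 at 2 h and 6 h overlapped. Shares have no test here.

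**Figure D4:**
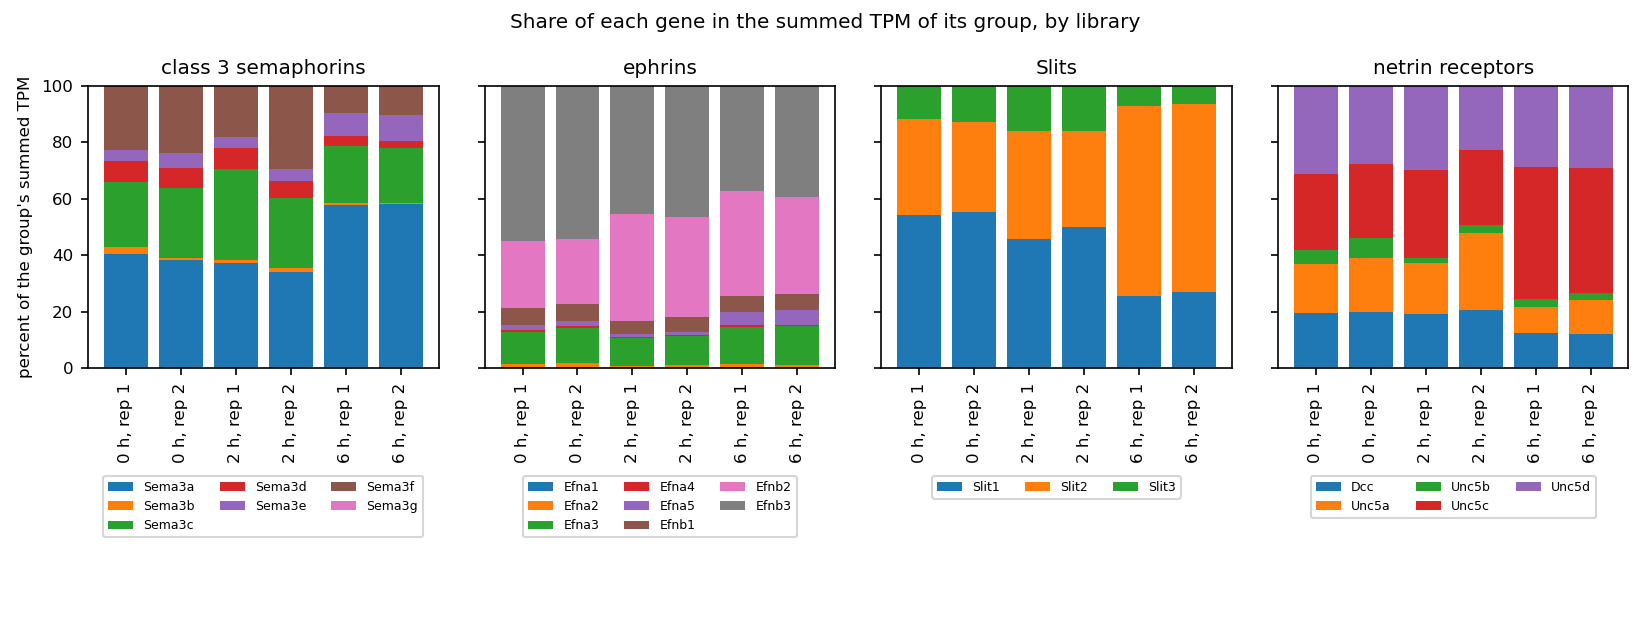
Stacked shares of each gene in the summed TPM of its group, in percent, for class 3 semaphorins, ephrins, Slits and netrin receptors, with 1 bar per library. Slit2 takes 67.6% and 66.5% of the Slit bars at 6 h against 33.9% and 31.7% at 0 h.

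To examine whether the mix of transcripts moved, the effective length of each gene was compared, a mean over its transcripts in bases weighted by their abundance. Of the 57 guidance genes averaging 100 or more expected counts, limma called 0 in each comparison (adjusted p up to 0.05, log2 ratio of 0.2 or more), beside 0.0356%, 0.525% and 0.116% of all genes tested at 2 h against 0 h, 6 h against 0 h and 6 h against 2 h. At an unadjusted p under 0.05 there were 6, 8 and 8 of the 57 genes (10.5%, 14.0% and 14.0%), beside 8.08%, 14.0% and 12.2% of all genes tested. The lowest adjusted p was that of Sema3f at 6 h against 2 h (0.0820, log2 ratio -0.35 ± 0.03), with effective lengths of 1308 and 1352 bases at 0 h, 1693 and 1670 after 2 h and 1351 and 1287 after 6 h. The 2 h libraries were thus longer than the other 4. Sema3f and the other genes given for their lengths here were chosen after their values were seen. Ephb2 had the largest ratio at 2 h against 0 h at 0.48 ± 0.16, but its lengths at 0 h differed between replicates at 5385 and 7228 bases. Efnb2 went from 3356 and 3255 bases at 0 h to 2608 and 2769 at 6 h (-0.30 ± 0.06, adjusted p = 0.169), so its TPM and its count do not move by the same factor. Slit2 kept between 5367 and 5504 bases in all 6 libraries.

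Downstream of these receptors, a list of 50 genes of guidance signalling (collapsin response mediators, cytoskeletal regulators and kinases) was read in the same fit. At 2 h against 0 h, 0 of the 50 were called by DESeq2 and 0 by edgeR, while 18 of the 50 were higher and 4 lower at an unadjusted p under 0.05, beside 16.9% and 17.8% of all genes tested. At 6 h against 0 h, 5 genes of the list were called higher (Abl2, Nck2, Rasa1, Rock2 and Tiam1) and 2 lower (Limk1 and Vav2), beside the 9.10% and 10.2% of all genes given above. At 6 h against 2 h, 4 were called higher (Abl2, Nck1, Rasa1 and Rock2) and 3 lower (Dock1, Limk1 and Vav2), beside 10.1% and 8.02% of all genes. Rock2, a kinase that contracts the growth cone cytoskeleton, had 2292.9 and 1868.3 normalized counts at 0 h and 6951.0 and 6584.6 at 6 h, with a log2 fold change of 1.70 (adjusted p = 2.57e-09). Limk1, a kinase that inactivates cofilin, had 905.5 and 884.9 at 0 h and 314.6 and 349.6 at 6 h (-1.43, adjusted p = 9.50e-16). Abl2, a kinase that acts on the actin cytoskeleton, was at 1.49 (adjusted p = 1.01e-37) and Vav2, an exchange factor recruited by Eph receptors, at -1.13 (adjusted p = 2.99e-16). The median log2 fold change of the list was 0.18, 0.27 and 0.06 in the 3 comparisons, beside 0.02, 0.00 and -0.01 for all genes.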

How the data were processed

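RNA-seq of poly(A)-selected RNA was available for 6 libraries, 3 groups of 2 replicates taken from the sample titles. The authors trimmed reads, mapped them to mm10 and ran RSEM, and the submitters' processing notes name RSEM 1.3.0 and Bowtie2 2.2.9. The study's methods name a stranded kit (TruSeq Stranded mRNA), but the annotation release and the strand setting used in counting are not given in the sources used here, so genes that overlap on opposite strands are uncertain. The deposited expected counts are estimates per gene that need not be whole and are not normalized. The deposited TPM values allow for transcript length and have the same total in each library, and the deposited effective lengths are in bases. FPKM values and the bisulfite libraries were not analysed here. Total counts per library were 25959298 to 28573067, reads carry no molecular identifiers, and so precision from counts covers counting error only.

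After rounding the expected counts, all 22515 genes detected in at least 1 library were fitted together with DESeq2 1.42.0 in R 4.3.3, with the group as the only term, the Wald test, median-of-ratios size factors, unshrunken fold changes and Benjamini-Hochberg adjustment after independent filtering. Calls needed an adjusted p up to 0.05 and a log2 fold change beyond 1 in either direction, the thresholds of the study's methods. Log2 effective lengths were tested with limma 3.58.1 over genes averaging 100 or more expected counts. The guidance genes and gene lists were chosen with earlier results of these data known. Every called gene is named. Values in every library are given, by rule, for up to 4 called genes with the largest change in each comparison (3 at 2 h against 0 h; mean normalized count of at least 50, no overlap between libraries), for the gene with the highest mean TPM in each role group, and for the called gene with the largest change at 6 h against 0 h in each role group, and in addition for the other called genes. Genes that were not called are named for the direction of their change. Alternatives were edgeR 4.0.16, other size factors, filters and thresholds, a GC correction, a replicate block and leaving out each library, and an independent filter set at 0.1 was added after seeing the data. The scripts were tested on simulated data. Symbols, positions and GC content came from GENCODE M21 (GRCm38), which gave 42548 of the 43432 genes a symbol and may differ from the release the authors used, and upstream sequences from RefSeq on GRCm38.p6.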

Additional observations from a re-analysis of the deposited data

How the results depend on the processing

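Depth limits Epha2, Efna1, Efna4, Plxnb3, Robo3, Sema3b, Sema3g and Epha1 most. The 28 pairs of a called gene and a comparison were recomputed under 15 alternatives, and 5 stayed called under each: Sema4b at 2 h against 0 h, Slit2 at 6 h against both times, and Sema3e and Epha8 at 6 h against 2 h. No direction reversed, and 10 further pairs were called under some alternative only. The counts of genes called higher and lower that follow are for 2 h against 0 h, 6 h against 0 h and 6 h against 2 h. Testing against a log2 fold change of 1 left 0 and 1, 1 and 0, and 2 and 1. Dropping the fold threshold gave 10 and 7, 17 and 17, and 18 and 16. Scaling by library totals left 3 genes called higher at 6 h against 0 h, the median of all genes being at -0.251, and the changes of Sema3a (0.94), Sema6a (0.83), Epha3 (0.80) and Epha10 (0.80) fell under the fold threshold, while Epha2 (1.35) lost its adjusted p (0.0827). Leaving out each library in turn, the genes called higher at 2 h numbered 0 to 1, with 1 only without replicate 2 at 6 h. No other count moved by over 1.5 times, and effective length gave 0 calls throughout.

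Over 12290 genes, the correlations of same-numbered deviations were 0.250 for 0 h and 2 h, -0.014 for 0 h and 6 h and 0.145 for 2 h and 6 h. With a GC correction they were 0.088, -0.070 and 0.036. With 2 replicates per group these values cannot decide whether same-numbered libraries were prepared together, and pairing was not tested. A replicate block left 7 genes called higher at 6 h against 0 h, without Epha2 (adjusted p = 0.0709), and changed no other count in the 3 comparisons. Efna1 at 2 h against 0 h and at 6 h against 2 h was called with edgeR (-1.70 and 1.48). Efna4 at 6 h against 0 h was called lower with edgeR (-1.05) and library totals (-1.27). It was also called there with a mean count of at least 10 in place of independent filtering (-1.02). Close to the fold threshold, Sema4g at 6 h against 2 h was called with edgeR (-1.02) and TMM factors (-1.03), Unc5a with edgeR (-1.01) and TMM factors (-1.02), and Epha7 at 2 h against 0 h with library totals (-1.11). The causes were not tested.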

Other observations

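Guidance genes outside the families above were read in the same DESeq2 fit from a list of 48 genes, of which 47 were tested against 0 h and 46 at 6 h against 2 h. At 2 h 0 were called higher and 2 lower by DESeq2, and the same numbers by edgeR, beside 3.62% and 5.94% of all genes tested with DESeq2. At an unadjusted p under 0.05, 10 (21.3%) were higher and 8 (17.0%) lower, beside 16.9% and 17.8% of all genes. The 2 called lower were Cxcl12 and Ackr3. Cxcl12, a chemoattractant of migrating interneurons, had 285.8 and 302.5 normalized counts at 0 h, 138.8 and 115.8 after 2 h and 326.4 and 359.2 after 6 h. Its scavenger receptor Ackr3 had 451.8 and 435.7 at 0 h, 128.8 and 105.5 after 2 h and 188.3 and 175.3 after 6 h, with a log2 fold change of -1.92 at 2 h against 0 h (adjusted p = 1.66e-18).

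At 6 h against 0 h, DESeq2 called 3 genes of that list higher (Boc, Fzd3 and Omg) and 4 lower (Ackr3, Cntn2, Draxin and Rtn4r), and edgeR called 3 higher and 5 lower. Omg, the myelin glycoprotein that inhibits axon growth through the receptor Rtn4r, had 506.9 and 439.9 normalized counts at 0 h, 752.0 and 596.5 after 2 h and 3075.3 and 3035.2 after 6 h (2.69, adjusted p = 2.45e-59). Rtn4r had 230.8 and 262.9 at 0 h and 84.5 and 120.5 at 6 h (-1.27, adjusted p = 1.12e-04). Draxin, an antagonist of netrin signalling, had 1807.4 and 2025.9 at 0 h and 884.9 and 861.5 at 6 h (-1.13, adjusted p = 3.32e-15). The list had 6.38% of its tested genes called higher and 8.51% lower there, beside 9.10% and 10.2% of all genes. At 6 h against 2 h, DESeq2 called 6 higher (Boc, Cdon, Cxcl12, Fzd3, Omg and Rtn4rl1), 13.0% of those tested beside 10.1% of all genes, and 3 lower (Cntn2, Cxcr4 and Draxin), 6.52% beside 8.02%, while edgeR called 5 higher and 3 lower. Cxcr4, the signalling receptor of Cxcl12, had 269.0 and 353.9 normalized counts at 0 h, 379.5 and 474.5 after 2 h and 156.2 and 187.1 after 6 h, with a log2 fold change of -1.31 at 6 h against 2 h (adjusted p = 4.31e-07). These genes were named after their values were seen.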
